A study of Mus musculus with 36 samples.

Results

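RNA of sorted P-bodies was compared with RNA of the cytoplasmic fraction in mouse embryonic fibroblasts (MEFs) at day 3 of reprogramming, in the control arm of a Nudt21 knockdown experiment. Genes entered the comparison when their reads in the 4 libraries, 2 of P-bodies and 2 of cytoplasm, added up to 10 or more, which left 15786 of the 25239 genes in the count table. The whole series holds 36 samples, and 20 of them are in this table. All cells of the comparison were MEFs of OKSM mice, which carry a doxycycline-inducible cassette of Pou5f1 (Oct4), Klf4, Sox2 and Myc downstream of Col1a1, the transactivator M2-rtTA at Rosa26 and an EGFP reporter driven by Pou5f1 regulatory elements. They also carried a lentiviral GFP-LSM14A fusion driven by an EF1a promoter, which makes P-bodies fluorescent. What the control cells received in place of the knockdown hairpin is not given in the sources used here. Factor expression had been induced with doxycycline for 3 days in medium with serum, LIF and ascorbic acid. The knockdown arm was treated alike and carried a hairpin against Nudt21 in a vector with mCherry and puromycin resistance. The product of Nudt21 directs the choice of polyadenylation site. The MEF libraries came from fibroblasts not in reprogramming. The study derived MEFs from CD1 wild-type and from OKSM mice, and which of them gave these MEF libraries is not given in the sources used here. The study describes the replicates of its sequencing assays in general as biological, but neither it nor the labels say whether these libraries came from separate cultures, so the p-values measure the spread between these libraries, which may in part be technical.

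P-bodies are membraneless granules of messenger RNA and protein in the cytoplasm. They hold the decapping and deadenylation machinery, the helicase DDX6 and microRNA effectors, and they are known for keeping translationally repressed messages. The cytoplasmic fraction of this study is the particle-containing material left after nuclei were removed, and the P-bodies were sorted out of it, so that the cytoplasm libraries hold P-body RNA as well. A log2 fold change (FC) above 0 thus means a larger share of the reads in sorted P-bodies than in that starting material. As in any bulk sample, fewer cells (or particles) with a message and less of it in each cannot be told apart.

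The 4 libraries held 25739168 and 19384697 assigned reads (P-bodies, replicates 1 and 2) and 26740715 and 25987158 (cytoplasm). The P-body replicates differed more from each other than the cytoplasm replicates did. The SD of their log2 difference across 9904 genes at 10 counts-per-million (CPM) or more was 0.413, against 0.140 for cytoplasm, and 246 of those genes differed by more than 2-fold between P-body replicates, against 2 between cytoplasm replicates. No pair of replicates agreed within sampling noise (chi-square per degree of freedom of 49.4 and 4.98). Nudt21 was at 107 and 115 CPM in P-bodies against 89.1 and 92.2 CPM in cytoplasm, and between 5.01 and 5.96 CPM in the 4 knockdown libraries, in the direction of the labels. The fibroblast label was met by most of its markers but not all. Vimentin (Vim) reached 2644.5 and 3426 CPM in P-bodies and 2611 CPM in both cytoplasm libraries. Fn1, Ddr2, Prrx1, Pdgfrb, Thy1, Dcn and Twist1 lay between 10.45 CPM (Twist1) and 2688 CPM (Fn1) in every library. Lum, however, reached at most 1.34 CPM and Pdgfra at most 2.62 CPM in any library. Among epithelial markers, Cdh1 (E-cadherin) was read at 31.9 and 16.6 CPM in P-bodies and 50.1 and 53.8 CPM in cytoplasm. Krt8 lay between 16.8 and 26.7 CPM and Krt18 between 10.5 and 14.3 CPM, and Epcam reached at most 3.5 CPM.

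Of the 15786 genes, 31 were P-body-enriched and 71 were P-body depleted (0.196% and 0.450% of the genes tested, 0.646% in all) by edgeR's quasi-likelihood test at a Benjamini-Hochberg adjusted p under 0.05. The enriched genes were led by Dppa5a, zinc finger genes and predicted genes beside them, and the depleted genes by long messages for chromatin regulators, RNA polymerase II and matrix proteins. The calls lay just inside the threshold. Their adjusted p-values ran from 0.0495 to 0.0499, the next gene was at 0.0504, and 3899 genes had an unadjusted p under 0.05. All 102 genes had P-body and cytoplasm libraries that did not overlap, which was also true of 4481 genes higher in P-bodies and 4888 genes lower among all genes tested. The count turned on which libraries entered the fit. Without P-body replicate 1 it was 8752, without P-body replicate 2 it was 4896, without cytoplasm replicate 1 it was 155 and without cytoplasm replicate 2 it was 82, with 59 and 34 of the 102 genes still called in the last pair of fits, where the lone library was assumed to vary like the other fraction.

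**Figure D1:**
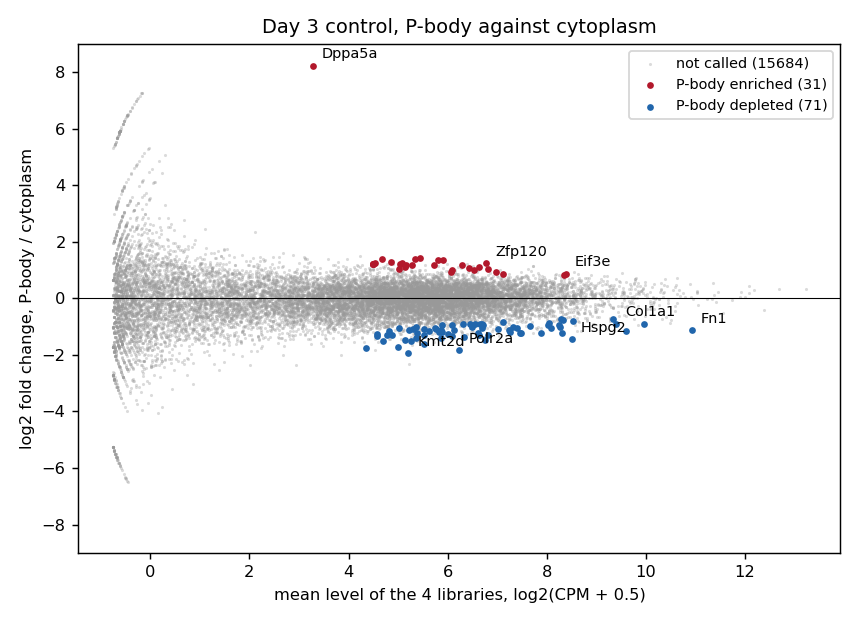
Log2 fold change of P-body over cytoplasm (vertical axis) against the mean level of the 4 libraries as log2(CPM + 0.5) (horizontal axis), 1 point per gene for the 15786 genes tested. The 31 enriched genes (red) and 71 depleted genes (blue) lie at the edges of the cloud at medium to high levels, with Dppa5a alone near 8, while genes of few reads spread widely and were not called.

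The called groups differed in GC content, at codon position 3 as well as over the whole transcript. Depleted genes also had longer coding parts than all genes. Short stretches of some genes with the largest changes are printed here to show what such sequence looks like. Each line gives 10 codons, from 1 fixed codon number, of the longest GENCODE M21 coding transcript on GRCm38 (mm10), 5′ to 3′, with base 3 of every codon in capitals. The first 4 genes were enriched and the last 3 were depleted.
BC024063: acTgaCgaGaaAtcCtgTaaAcgTaaTcaG
Zfp97: caTcaTcaGttAcaTaaGgaCacTggAtcT
Zfp938: atGagAagAcaTggTgaAtgTgaTatAagT
Gm2026: aaAcaCcaTgaCtgTaaCcaAtgTggTaaG
Kmt2d: ggAaaCtcAggTccCtgTgaGgcAgtGctG
Sipa1l3: ggTgtGaaGacCacCaaGgtAgcCcaTtcC
Wiz: ccAccAccCcaTctTctGggTccCttCccT
The stretches lie, in this order, at chr10:82108848-82108877 (plus strand), chr17:17144541-17144570 (plus), chr10:82226455-82226484 (minus), chr2:175977628-175977657 (plus), chr15:98866066-98866095 (minus), chr7:29400513-29400542 (minus) and chr17:32378429-32378458 (minus). Over these 10 codons, G or C stood at codon position 3 in 4, 3, 1 and 4 codons of the enriched genes and in 5, 7 and 4 of the depleted ones. Over the whole coding part, GC at codon position 3 (GC3) was 22.1%, 26.7%, 25.9% and 27.3% in the former and 59.9%, 73.0% and 59.8% in the latter.

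Dppa5a, a small KH-domain protein gene known as a marker of pluripotent cells, had by far the largest enrichment among the called genes. It had 328 and 467 reads in the P-body libraries (12.7 and 24.1 CPM) and 0 and 3 reads in the cytoplasm libraries. The ratio of pooled reads, scaled to library totals, was 309.7, with an exact 95% interval of 106 to 1505 that covers counting error only. The fitted log2 (FC) of 8.23 depends on the prior count used for such low values. In the knockdown arm it had 100 and 108 reads in P-bodies and 5 and 0 in cytoplasm, and in MEFs 0 reads in all 4 libraries. Naive embryonic stem cells had the opposite order, with 1792 and 1812 CPM in P-bodies against 3130 and 4577 CPM in cytoplasm. Some other markers of those cells were close to 0 in the day 3 control: Nanog reached at most 0.98 CPM, Zfp42 at most 0.971 CPM, and Esrrb had 5, 3, 0 and 0 reads. Other genes listed as pluripotency genes were not. L1td1 had 67.8 and 100.8 CPM in P-bodies and 61.5 and 59.3 CPM in cytoplasm, and Fgf4 lay between 54.6 and 62.5 CPM.

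Zinc finger genes made up much of the rest of the enriched group. The largest changes after Dppa5a were those of Gm51425, a predicted gene, at 70.5 and 54.9 CPM in P-bodies against 24.5 and 22.7 CPM in cytoplasm, with a log2 (FC) of 1.42 ± 0.17 (SE). LOC102640673 (1.38 ± 0.17) and BC024063 (1.38 ± 0.16) followed. Zfp97 had 96.9 and 72.9 CPM in P-bodies against 33.7 and 32.9 CPM in cytoplasm (1.36 ± 0.16), and Zfp960 had 89.7 and 69.5 CPM against 31.3 and 31.4 CPM (1.36 ± 0.16). The P-body values of both genes lay more than 2-fold above every cytoplasm value, and P-body replicate 1 was the higher replicate. Zfp938 (1.30 ± 0.17), Zfp820 (1.25 ± 0.16) and Zfp120 (1.24 ± 0.14) were at 35.9 CPM or more in P-bodies, and Zfp958, Zfp442, Zfp952 and Zfp322a were enriched between 0.99 and 1.17.

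Some of these genes share reads. Gm14308, Gm14430, Gm4724 and Gm14434 had identical counts in all 4 libraries (33.4 and 27.9 CPM in P-bodies against 13.9 and 12.4 CPM in cytoplasm), and Gm2026 was close to them (1.25 ± 0.17), so these entries are not separate measurements. With the 4 identical entries merged the enriched genes were 28, and with Gm2026 merged too they were 27. Among all 348 tested zinc finger genes named Zfp and a plain number, which encode DNA-binding proteins that in large part silence transposable elements, 8 were enriched and 0 depleted, 231 had a log2 (FC) above 0, and the median was 0.31 against -0.01 for all genes. The most abundant of them were not called, with Zfp706 at 0.08 ± 0.11 and Zfp62 at 1.04 ± 0.18 (adjusted p = 0.0571 by edgeR). Over all 15786 genes tested, 0.196% were enriched and 7817 had a log2 (FC) above 0.

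The remaining enriched genes had varied roles. Cep290, which encodes a protein of the ciliary transition zone, was at 46.5 and 43.6 CPM in P-bodies against 19.5 and 19.97 CPM in cytoplasm, a log2 (FC) of 1.20 ± 0.14. Lrrcc1, of the centrosome, rose by 1.17 ± 0.14, the mitotic kinesin Kif20b by 0.92 ± 0.12 and the golgin Gcc2 by 0.93 ± 0.13. Eif3e, a subunit of the translation initiation factor eIF3, was the most abundant enriched gene, with 431.2 and 429.0 CPM in P-bodies against 248.6 and 226.2 CPM in cytoplasm (0.87 ± 0.11). U2surp, a splicing-associated factor, was close behind at 410.6 and 416.1 CPM against 245.8 and 231.0 CPM (0.81 ± 0.11). Taf1d, a subunit of the RNA polymerase I selectivity factor, Tmed5, a cargo receptor of early secretory vesicles, Ankrd49, Esf1, Etaa1 and 1700019D03Rik completed the group with Gm38396, at log2 (FC) values between 0.85 and 1.18.

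Chromatin and transcription genes led the depleted group. Kmt2d, which encodes a histone H3 lysine 4 methyltransferase of enhancers, had 12.7 and 17.1 CPM in P-bodies against 57.7 and 58.5 CPM in cytoplasm, the largest depletion of a called gene (log2 (FC) of -1.95 ± 0.20). Polr2a, the largest subunit of RNA polymerase II, had 37.1 and 27.9 CPM against 122.0 and 112.7 CPM (-1.84 ± 0.16). For both genes every P-body value was more than 3-fold below every cytoplasm value. Wiz (-1.71 ± 0.23), a zinc finger partner of G9a histone methyltransferases, Srcap (-1.61 ± 0.18), an ATPase that deposits H2A.Z, and Spen (-1.46 ± 0.14), a transcriptional repressor, were lower in P-bodies as well.

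Among the 32 tested histone-modifying enzymes and readers 2 were depleted and 0 enriched, 27 had a log2 (FC) below 0 and the median was -0.37. Kdm5c (-0.63 ± 0.12) and Brd2 (-0.58 ± 0.12), the most abundant members, did not pass the test. Over all 15786 genes tested, 0.450% were depleted and 7969 had a log2 (FC) below 0. Of 26 chromatin remodellers 1 was depleted, 20 lay below 0 and the median was -0.31, although Atrx had 280.3 and 285.3 CPM in P-bodies against 190.6 and 193.8 CPM in cytoplasm (0.57 ± 0.11, adjusted p = 0.0615 by edgeR). The 43 subunits of RNA polymerase II and Mediator had a median of 0.22, with Polr2a as the 1 member called. No other subunit was called, and 26 of the 43 lay above 0. Polr2e, a shared polymerase subunit, had 239.8 and 293.3 CPM in P-bodies and 199.3 and 218.3 CPM in cytoplasm.

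Large cytoskeletal, adhesion and matrix proteins formed the second depleted set. All 25 tested genes of the list of large cytoskeletal and adhesion proteins were lower in both P-body libraries than in both cytoplasm libraries. The median was -0.70 and 5 passed the test. Over all genes tested, 4888 of 15786 (31.0%) lay apart in this direction and 0.450% were depleted. The list was chosen with earlier results of these data known. Hspg2, the basement membrane proteoglycan perlecan, had 193.9 and 193.5 CPM in P-bodies against 510.6 and 551.5 CPM in cytoplasm (-1.44 ± 0.11). Myh9, the heavy chain of non-muscle myosin IIA, had 203.4 and 171.8 CPM against 446.8 and 448.3 CPM (-1.24 ± 0.12). Lamc1, a laminin chain, fell by 1.22 ± 0.15 and the endocytic receptor Lrp1 by 1.15 ± 0.10. Plec (plectin), the remaining called member, had 203.2 and 201.7 CPM against 405.2 and 414.5 CPM. Flna (-0.76 ± 0.16) and Actn4 (-0.64 ± 0.14), the most abundant members, missed the threshold.

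Fn1 (fibronectin) and Col4a2 were the most abundant of the depleted messages in cytoplasm. Fn1 had 1375 and 1054 CPM in P-bodies against 2688 and 2673 CPM in cytoplasm (-1.13 ± 0.13). Of 40 collagen genes 4 were depleted (0.450% over all genes tested) and 0 enriched, 35 lay below 0 and the median was -0.61. The called members were Col6a3 (-1.03 ± 0.12), Col4a2 (-0.92 ± 0.12), Col1a1 (-0.89 ± 0.10) and Col5a1 (-0.75 ± 0.10). Col1a1, at 486.3 and 454.8 CPM in P-bodies against 867.3 and 898.8 CPM in cytoplasm, is the gene that carries the factor cassette in these cells. Col1a2 (-0.52 ± 0.09) and Col4a1 (-0.85 ± 0.12) did not pass. The wider list of 28 fibroblast and mesenchymal genes was spread around 0, with Fn1 as the 1 member called, a median of -0.05 and 12 members above 0. Among its other members, Vim was at 0.24 ± 0.15.

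Further depleted genes, named here by size or after their values were seen, had varied roles. Furin, a proprotein convertase, was at 19.1 and 20.3 CPM in P-bodies against 47.5 and 65.4 CPM in cytoplasm (-1.50 ± 0.20). Clstn1, a calsyntenin of vesicle transport, was at 53.9 and 58.2 CPM against 152.5 and 164.6 CPM (-1.48 ± 0.13). Sipa1l3 (-1.77 ± 0.17), a Rap GTPase-activating protein, Slc45a4 (-1.52 ± 0.18), a membrane transporter, the kinase gene Hipk2 (-1.41 ± 0.18) and Tnrc18 (-1.40 ± 0.14) were the others among the 12 largest depletions. Akt1, a kinase of growth factor signalling, Plxna1, Nrp2, Ptprs, Ptprf and Dvl3 were also depleted, between -1.22 and -0.96.

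The reprogramming factors were lower in P-bodies in every library pair. Sox2 passed the test, with 73.4 and 61.0 CPM in P-bodies against 138.1 and 141.5 CPM in cytoplasm (-1.04 ± 0.13). Pou5f1 had 93.8 and 54.0 CPM against 193.4 and 179.7 CPM (-1.32 ± 0.24, adjusted p = 0.0597 by edgeR), Klf4 had 172.5 and 125.6 CPM against 295.9 and 308.2 CPM (-1.01 ± 0.16, adjusted p = 0.0504), and Myc had 197.9 and 196.2 CPM against 313.5 and 324.1 CPM (-0.68 ± 0.11, adjusted p = 0.0504). The median of the 4 genes was -1.02. Reads of the induced cassette and of the endogenous genes cannot be told apart in a count per gene. In the knockdown arm all 4 were called, between -1.20 and -0.90.

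**Figure D2:**
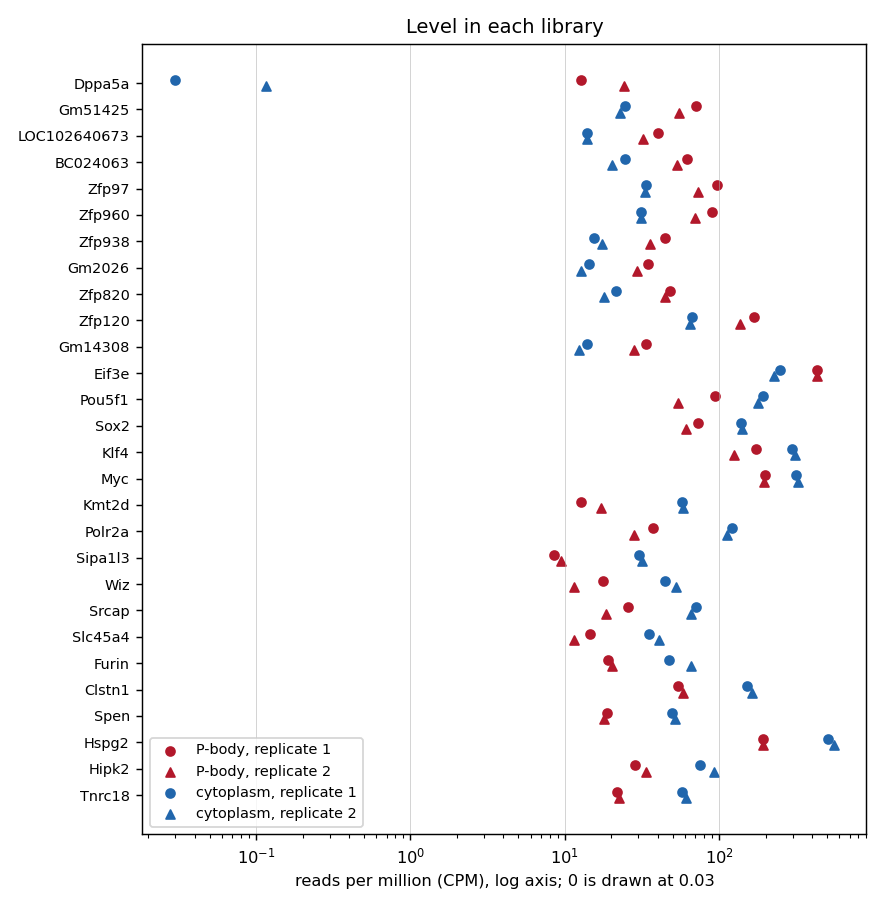
CPM in each of the 4 libraries (log axis, 0 drawn at 0.03) for Dppa5a, the other genes with the largest enrichment, Eif3e, the 4 reprogramming factors and the 12 genes with the largest depletion. Red marks are P-bodies, blue marks are cytoplasm, circles are replicate 1 and triangles replicate 2. In every row the 2 red marks lie on 1 side of the 2 blue marks. For the genes with the largest enrichment and depletion this was a condition of their selection.

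Messages of P-body proteins showed no common direction. Of 19 P-body core and decapping factors 0 were called, 9 lay above 0 and the median was -0.08. Messages of its defining proteins were near 0, with Ddx6 at -0.08 ± 0.13 and Lsm14a at -0.15 ± 0.13. Edc4, the decapping scaffold, had 117.6 and 76.3 CPM in P-bodies against 150.4 and 154.0 CPM in cytoplasm (-0.64 ± 0.20), and Lsm4, of the LSM ring, had 155.2 and 212.0 CPM against 122.8 and 132.2 CPM (0.55 ± 0.18). Of 18 deadenylation factors 0 were called (median -0.06), with the scaffold Cnot1 at -0.41 ± 0.20 and Btg2 at -0.02 ± 0.12. Of 13 genes of the microRNA pathway 1 was depleted (median -0.22). This was Drosha, the nuclease that cuts primary microRNAs, at 56.9 and 53.1 CPM in P-bodies against 104.2 and 102.6 CPM in cytoplasm (-0.90 ± 0.12). Ago2, the slicing Argonaute, was at -0.78 ± 0.16 (adjusted p = 0.0731 by edgeR), Xpo5 at -0.52 ± 0.14 and Tnrc6b at -0.01 ± 0.13.

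Short and abundant messages of the ribosome, the respiratory chain and the proteasome lay above 0 with few exceptions and without a call. All 83 tested cytosolic ribosomal protein genes had a log2 (FC) above 0, and in 81 both P-body libraries were higher than both cytoplasm libraries, yet 0 were called (median 0.64). Rpl13 shows the spread behind this, with 1502 and 2438 CPM in P-bodies against 1213 and 1215 CPM in cytoplasm (0.72 ± 0.23), and Rpl4 was at 0.30 ± 0.11. Over all 15786 genes tested, 7817 lay above 0. Both P-body libraries were higher than both cytoplasm libraries in 4481 of all genes (28.4%). Of 78 mitochondrial ribosomal proteins 76 lay above 0 (median 0.48), with Mrpl12 at 0.64 ± 0.12 and Mrpl28 at 0.51 ± 0.14. Of 84 respiratory chain subunits 82 lay above 0 (median 0.55), but the most abundant, Atp5b and Atp5a1, were at 0.12 ± 0.08 and 0.04 ± 0.09. Of 38 proteasome subunits 35 lay above 0 (median 0.39), with Psmc1 at 0.37 ± 0.10 and Psmd2 at -0.16 ± 0.11.

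Translation factors were split. Of 57 initiation and elongation factors 1 was enriched, 1 was depleted and the median was 0.17. Eif3e was the enriched member and Eif4g3, a scaffold of cap-dependent initiation, the depleted one, with 67.8 and 62.5 CPM in P-bodies against 124.7 and 120.7 CPM in cytoplasm (-0.90 ± 0.12). Eef1a1 and Eef2, the most abundant, were at 0.30 ± 0.11 and 0.05 ± 0.10. The 16 endoplasmic reticulum chaperones and collagen-folding enzymes had a median of -0.05 with 0 called, Serpinh1 at -0.16 ± 0.09 and Hspa5 at -0.02 ± 0.09.

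Replication-dependent histone genes had the highest median of the larger lists, 0.85 over 62 genes, of which 58 lay above 0 and 0 were called. In 37 of them both P-body libraries were higher than both cytoplasm libraries, against 28.4% of all genes tested. In the knockdown arm the median of this list was 0.20. Hist1h2ao and Hist1h2ap, which share almost all their reads, had 180.9 and 398.1 CPM in P-bodies against 128.9 and 138.0 CPM in cytoplasm (1.14 ± 0.35). Here P-body replicate 2 lay well above replicate 1, as it did for Rpl13. All 18 small nucleolar RNA host genes lay above 0 (median 0.53, 0 called), with Gas5 at 0.53 ± 0.18 and Snhg14 at 0.27 ± 0.15. Of 9 nuclear-retained noncoding RNAs 0 were called and 6 lay above 0 (median 0.31), with Malat1 at 1474 and 1798 CPM in P-bodies against 1361 and 1350 CPM in cytoplasm (0.29 ± 0.13) and Neat1 at 29.8 and 28.7 CPM against 50.9 and 51.6 CPM (-0.79 ± 0.13).

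**Figure D3:**
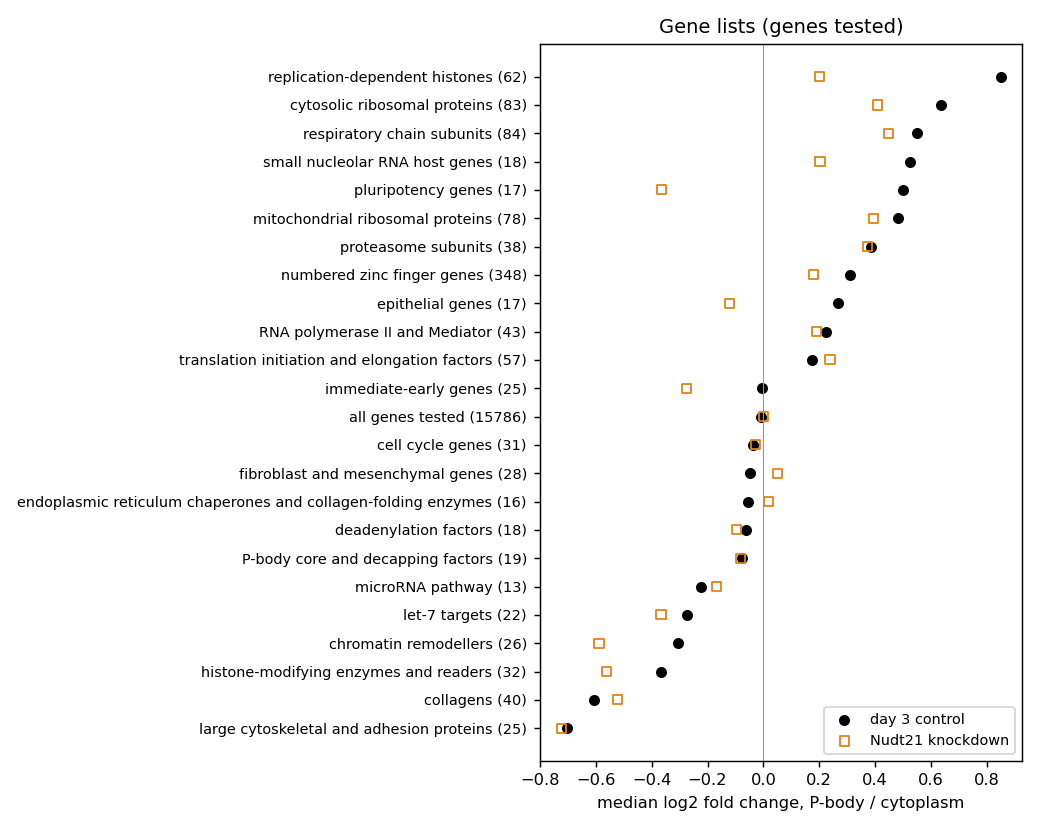
Median log2 fold change of each gene list with at least 10 genes tested, with the number tested in parentheses, in the day 3 control (black) and in the Nudt21 knockdown arm (orange squares). Histone, ribosomal and respiratory chain lists lie to the right, and collagens and large cytoskeletal and adhesion proteins lie at -0.61 and -0.70 in the control.

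Cell cycle and immediate-early genes had medians close to that of all genes. The medians of the pluripotency and epithelial lists lay above it, but below 0 in the knockdown arm, at -0.37 and -0.12. In the control, 4 pluripotency genes had both P-body libraries above both cytoplasm libraries, and 4 had both below. For epithelial genes these counts were 5 and 2. Of 31 cell cycle genes 0 were called (median -0.04), with the D-type cyclins Ccnd2 at 3042 and 3570 CPM in P-bodies against 3472 and 3535 CPM in cytoplasm (-0.07 ± 0.11) and Ccnd1 at 0.11 ± 0.12. The 25 immediate-early genes had a median near 0 (12 above 0, 0 called), with Cebpd at 0.74 ± 0.26 and Klf6 at 0.33 ± 0.15. Of 17 pluripotency genes tested Dppa5a was the 1 called, the median was 0.50, L1td1 was at 0.50 ± 0.21 and Fgf4 at -0.03 ± 0.13, and Tet2, the 5-methylcytosine oxidase, was at 32.5 and 32.1 CPM against 32.9 and 33.9 CPM (-0.03 ± 0.14). Of 17 epithelial genes 0 were called and 10 lay above 0 (median 0.27), with Krt19 at 0.20 ± 0.14 and Cdh1 at -1.09 ± 0.28. Of 7 translesion DNA polymerases and partners 0 were called (median 0.08). Polk, which bypasses bulky lesions, had 146.7 and 104.1 CPM in P-bodies against 93.6 and 90.6 CPM in cytoplasm (0.46 ± 0.17, adjusted p = 0.171 by edgeR), and Rev1 was at -0.34 ± 0.18.

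No gene of the short marker lists of other cell types passed the test, and these lists do not cover all such genes. Among depleted genes outside them, Laptm5 was at 227.0 to 395.7 CPM and Itgb4 at 448.0 to 806.9 CPM. In MEFs they reached at most 0.696 and 2.52 CPM. Leukocyte, endothelial, skeletal muscle, neural and glial, erythroid, lung epithelial and keratinocyte markers had 4, 7, 3, 4, 6, 1 and 6 genes tested, with 0 called in each list. Their median log2 (FC) values were, in this order, 0.38, -0.21, 0.44, 0.29, 4.08, -0.06 and 0.46. The erythroid value was 2.25 with genes at 0 in cytoplasm set to their bound. Of the 6 erythroid genes 3 had 0 reads in 1 fraction. Hba-a1 and Hba-a2, with identical counts, met the filter of 10 reads through P-body reads alone. The erythroid medians thus do not measure a direction. Leukocyte markers summed to 15.4 and 20.2 CPM in P-bodies against 13.9 and 17.8 CPM in cytoplasm, mostly of Cd68. Endothelial markers summed to 192.8 and 124.3 CPM against 215.9 and 204.6 CPM, nearly all of it Tek. Neural and glial markers summed to between 188.7 and 253.6 CPM, nearly all Stmn2, and the other 4 lists to at most 12.7 CPM in any library. The leukocyte genes Tyrobp and Fcer1g, the muscle genes Myod1, Myog and Myf5, the glial gene Sox10, and Slc4a1, Scgb3a2, Sftpa1, Sftpb and Krt1 had 0 reads in all 4 libraries.

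Length and base composition moved with P-body enrichment across genes. Median log2 (FC) was 0.32, 0.12, -0.02, -0.17 and -0.38 over 5 equal groups of genes, from the shortest coding part (up to 759 bases) to the longest (2517 bases or more). The longest group held 53 of the 71 depleted genes, and the median coding length of depleted genes was 4725 bases against 1404 bases over all genes and 1515 bases in enriched genes. By GC3, the median was 0.21 in the lowest of 5 groups (up to 49.4%) and between -0.13 and -0.03 in the other 4, and 24 of the 27 enriched genes with an annotated coding part were in the lowest group (21 of 24 with the entries that share reads merged). Depleted genes had a median GC3 of 64.9% and all genes of 60.9%, against 35.7% in enriched genes. GC outside codon position 3 split the groups as well. Median GC of the longest transcript was 38.5% in enriched and 56% in depleted genes, with 26 of 27 enriched genes in its lowest group. For 3′ UTR GC the medians were 35.4% and 50.9%, with 22 of 27 in the lowest group. Their rank correlations with log2 (FC) were -0.23 over 15569 genes and -0.22 over 14219 genes. By 3′ UTR length the median went from 0.22 in the shortest group to -0.13 in the longest. The rank correlations of log2 (FC) were -0.38 with coding length and -0.20 with GC3 over 14368 genes and -0.19 with 3′ UTR length over 14219 genes. These are descriptions, since genes share libraries and their length, GC content and depth are related.

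Both properties were present together. When genes were cut into 3 equal groups by each property, those highest in GC3 and longest in coding part had a median log2 (FC) of -0.51, and 26 of these 1237 genes were depleted. The group lowest in GC3 and shortest had a median of 0.31 over 1319 genes. Among the genes low in GC3 with a long coding part, 9 were enriched and 11 depleted. The direction with length was the same in each P-body library, at 0.20 to -0.29 for replicate 1 and 0.42 to -0.55 for replicate 2 between the shortest and longest of 5 groups of genes at 10 CPM or more. Differences between libraries of 1 fraction moved with the same properties: replicate 1 minus replicate 2 of the P-bodies had a rank correlation of 0.43 with coding length and -0.20 with GC3, and the cytoplasm replicates of 0.13 and -0.38. The part of these shifts in the comparison was not tested.

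**Figure D4:**
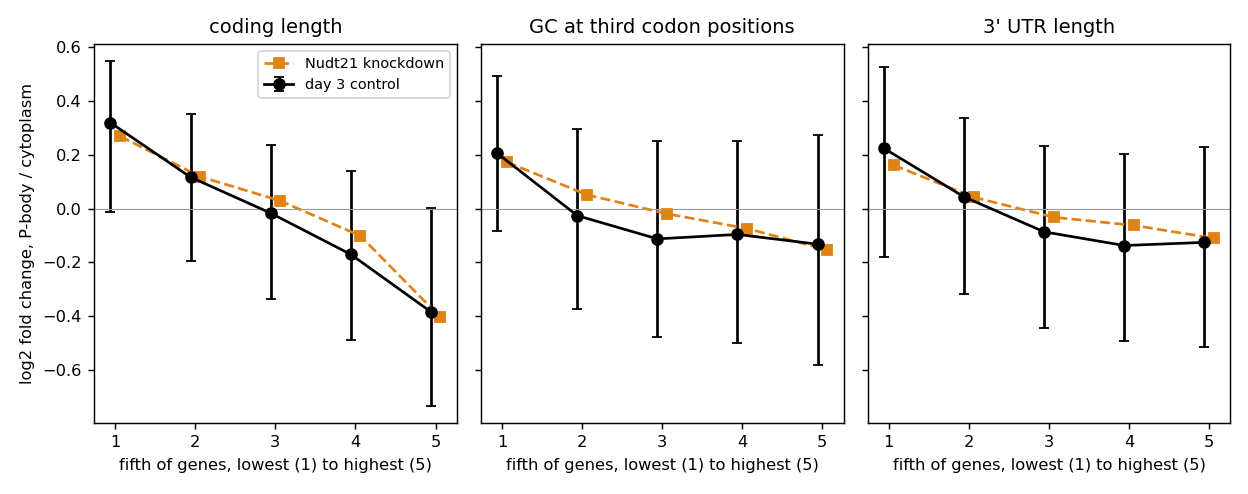
Median log2 fold change of P-body over cytoplasm over 5 equal groups of genes, ordered by coding length, GC at codon position 3 or 3′ UTR length, in the day 3 control (black, bars from the lower to the upper quartile of genes) and in the Nudt21 knockdown arm (orange, medians). The control median goes from 0.32 to -0.38 with coding length.

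MicroRNA seeds and their sites in 3′ UTRs were examined because P-bodies hold Argonaute proteins. The mature sequences, from RefSeq for GRCm38.p6, are printed 5′ to 3′ with the seed (bases 2 to 8) in capitals. Let-7 represses growth and stem cell genes and rises in differentiated cells, the miR-290 cluster with miR-294 marks pluripotent cells, and miR-29 is known for targeting collagen messages.
mmu-let-7a-5p: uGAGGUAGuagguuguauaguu
mmu-miR-29a-3p: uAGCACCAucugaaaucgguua
mmu-miR-294-3p: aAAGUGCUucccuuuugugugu
mmu-miR-381-3p: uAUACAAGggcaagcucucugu
The 4 seeds differ from each other. The 8-base sites searched on the transcript strand were CTACCTCA for let-7, TGGTGCTA for miR-29, AGCACTTA for miR-294 and CTTGTATA for miR-381, beside the Pumilio motif TGTANATA and the AU-rich element TATTTATT. They were in 4.26%, 3.43%, 3.53%, 3.61%, 25.7% and 16.9% of the 14219 longest annotated 3′ UTRs.

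Genes with a let-7 site had a median log2 (FC) of -0.14 and those without of -0.02. For miR-29 the medians were -0.16 and -0.02, for miR-294 -0.05 and -0.02, for miR-381 -0.07 and -0.02, for Pumilio -0.07 with a site and close to 0 without, and for the AU-rich element -0.09 and -0.01. Genes with a site had longer 3′ UTRs, with medians of 2368 to 3038 bases against 1042 to 1286 bases without. Genes were also cut into 3 equal groups by 3′ UTR length. For let-7 the medians with and without a site were -0.04 and 0.16 in the short group, -0.17 and -0.08 in the middle and -0.14 each in the long. For miR-29 they were -0.02 and 0.16, -0.14 and -0.08, and -0.17 and -0.13. For miR-294 they were 0.19 and 0.16, -0.10 and -0.08, and -0.05 and -0.14. The difference thus depended on the length group for each of these sites, and the groups with a site in short 3′ UTRs held 35 to 52 genes. Of 22 tested let-7 targets listed from general knowledge 0 were called, 17 lay below 0 and the median was -0.27, with Thbs1 at -0.77 ± 0.14 (adjusted p = 0.0579 by edgeR).

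A few called genes held microRNA sites. Let-7 sites were in 3 of 27 enriched genes with an annotated 3′ UTR (11.1%) and in 4 of 71 depleted genes (5.63%), against 4.26% of all genes. MiR-29 sites were in 2 enriched (7.41%) and 6 depleted genes (8.45%), against 3.43% of all. MiR-294 sites were in 0 enriched and 7 depleted genes (9.86%), against 3.53% of all, and miR-381 sites in 1 (3.70%) and 3 (4.23%), against 3.61%. The Pumilio motif was in 12 (44.4%) and 20 (28.2%), and the AU-rich element in 5 (18.5%) and 10 (14.1%), against 25.7% and 16.9% of all genes. With the 3′ UTR of median length instead, let-7 sites were in 2 enriched (7.41%) and 1 depleted gene (1.41%), against 2.47% of all. MiR-29 sites were in 1 (3.70%) and 7 (9.86%), against 2.23%, and miR-294 sites in 0 and 2 (2.82%), against 2.02%. MiR-381 sites were in 1 (3.70%) and 2 (2.82%), against 2.33%. The Pumilio motif was in 8 (29.6%) and 15 (21.1%), against 17.9%, and the AU-rich element in 3 (11.1%) and 7 (9.86%), against 11.3%. The first let-7 and the first miR-29 match in the 3′ UTR of each called gene with such a site are shown. Col5a1 and D630045J12Rik held 2 miR-29 sites each. Kmt2d, Dvl3, Khsrp and Nrp2 were the depleted genes with a let-7 site. Kif20b and Zfp322a were the enriched genes with a miR-29 site, and of the 6 depleted ones Col1a1, Col5a1, Col6a3, Lamc1 and Prelp code for matrix proteins and D630045J12Rik was the remaining gene. Each window has 28 bases on the transcript strand with the match in capitals, and a match is not evidence of binding.
Kmt2d let-7: gcacccacacCTACCTCAtttaagtgtt
Dvl3 let-7: ataataatacCTACCTCAcagggttgtt
Khsrp let-7: accttccaacCTACCTCAcaggggtgtt
Nrp2 let-7: ttgaggtgtcCTACCTCAgtggaagata
Zfp322a let-7: caacgcaagtCTACCTCAggtaagtagt
Ankrd49 let-7: gtggacagtcCTACCTCAccctggtcaa
Tmed5 let-7: cactaccctgCTACCTCAcacacaaaat
Col1a1 miR-29: aaggaatttcTGGTGCTAtagaagctga
Col5a1 miR-29: ttgtctcttgTGGTGCTAtgtgtccgga
Col6a3 miR-29: cctgtcaataTGGTGCTAaatgtgtcta
Lamc1 miR-29: tctgacacacTGGTGCTAttaattattt
Prelp miR-29: gaaagcaaccTGGTGCTAcagcctggac
D630045J12Rik miR-29: tttctccttcTGGTGCTAcagctctgag
Kif20b miR-29: atctatcaagTGGTGCTAaaggggataa
Zfp322a miR-29: aaaattattcTGGTGCTAccttacctgt
They lie in the 3′ UTRs, in this order, at chr15:98833829-98833856 (minus strand), chr16:20533892-20533919 (plus), chr17:57022174-57022201 (minus), chr1:62798051-62798078 (plus), chr13:23353243-23353270 (minus), chr9:14780524-14780551 (minus), chr5:108122805-108122832 (minus), chr11:94952528-94952555 (plus), chr2:28038024-28038051 (plus), chr1:90767401-90767428 (minus), chr1:153220058-153220085 (minus), chr1:133910797-133910824 (minus), chr6:38127633-38127660 (minus), chr19:34950230-34950257 (plus) and chr13:23354089-23354116 (minus) on GRCm38. Prelp, a matrix proteoglycan, had 270.2 and 259.5 CPM in P-bodies against 465.7 and 475.3 CPM in cytoplasm (-0.81 ± 0.10).

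The knockdown arm gave a separate measurement of the same fractions on its own 4 libraries. There 3501 of 15995 genes were called (21.9%), with 1446 enriched (9.04%) and 2055 depleted (12.8%). All 102 genes called in the control had the same sign in the knockdown arm. Of the 31 enriched genes 27 were called there in the same direction, which is 87.1% of the control list and 1.87% of the knockdown list (23 of 27 with the entries that share reads merged), and all 71 depleted genes were, which is 100% and 3.45%. Cep290 (0.07), U2surp (0.18), Gcc2 (0.22) and Zfp442 (0.42) were the enriched genes not called in the knockdown arm. The median log2 (FC) of the enriched genes was 1.18 in the control and 0.65 in the knockdown arm, and that of the depleted genes -1.13 and -1.18. All these genes were selected by their control values, so the medians do not measure a difference between the arms.

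The difference between the arms was tested as an interaction over 8 libraries. Of 16973 genes 2 differed (0.0118%), both nuclear noncoding RNAs, and none of the 102 genes was among them. Kcnq1ot1, an imprinted antisense RNA, had 27.5 and 25.4 CPM in P-bodies and 20.4 and 18.7 CPM in cytoplasm of the control, and 13.0 and 11.95 CPM in P-bodies and 49.8 and 50.5 CPM in cytoplasm of the knockdown arm. Its difference in log2 (FC) was 2.42 ± 0.19 (adjusted p = 0.0026 by edgeR). Xist, which coats the inactive X chromosome, had 30.7 and 33.4 against 26.6 and 21.7 CPM in the control and 16.2 and 13.4 against 50.4 and 48.6 CPM in the knockdown arm (2.12 ± 0.22, adjusted p = 0.017). For both genes the groups of the control and the knockdown arm went in opposite directions. The list of nuclear-retained noncoding RNAs, which holds both, had a median of 0.31 in the control and -1.80 in the knockdown arm, where 6 members were depleted. Among them Neat1 was at -0.79 and -1.86 (difference 1.04, adjusted p = 0.53 by edgeR) and Malat1 at 0.29 and -0.62 (0.88, adjusted p = 0.562), so that these differences were not called.

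**Figure D5:**
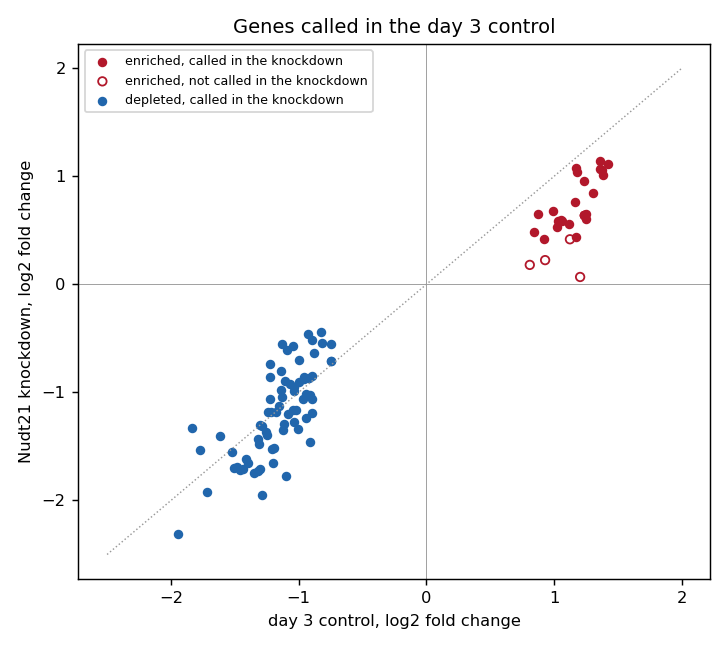
Log2 fold change in the day 3 control (horizontal axis) and in the Nudt21 knockdown arm (vertical axis) for the genes called in the control, without Dppa5a. Filled marks were also called in the knockdown arm, open marks were not, and the dotted line marks equal values. Every point lies in the quadrant of equal sign, and the enriched genes lie below the line. All points were selected by their control values.

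Against MEFs not in reprogramming, the difference in P-body enrichment was called for 2575 of 17488 genes (14.7%), 1677 of them higher at day 3 (9.59%) and 898 lower (5.13%). The MEF libraries differed from those of day 3 in other ways. In P-bodies they held Rn45s, the ribosomal precursor RNA, at 24018 and 25693 CPM against 7336 and 13759 CPM at day 3, and over both fractions Xist at 0 to 0.079 CPM against 21.7 to 33.4 CPM at day 3. Lung epithelial RNA was read in MEF P-bodies, with Scgb1a1 at 3.59 and 43.6 CPM and Sftpc at 1.94 and 42.4 CPM, and with 0 reads of both in MEF cytoplasm. The part of these in the differences was not tested. Since this contrast uses the day 3 libraries again, the counts for the called genes are a description: 5 of the 31 enriched and 25 of the 71 depleted genes differed. Some matrix messages differed between the cells and others were not called. Fn1 had 2005 and 1813 CPM in MEF P-bodies against 11170 and 10450 CPM in MEF cytoplasm, and its log2 (FC) was higher at day 3 by 1.43 ± 0.16 (adjusted p = 9.52e-04 by edgeR). The difference was 1.42 ± 0.15 for Col6a3 and 0.84 ± 0.15 for Col1a1. No difference was called for Hspg2 (0.28 ± 0.14, adjusted p = 0.22 by edgeR) or Prelp (0.10 ± 0.19, adjusted p = 0.784). Akt1 went the other way, with 184.8 and 196.5 CPM in P-bodies and 102.2 and 148.9 CPM in cytoplasm of MEFs (difference -1.76 ± 0.24, adjusted p = 0.0022). The difference for Klf4 was -1.88 ± 0.22, and that for Pou5f1, which reached at most 0.158 CPM in MEFs, was not called (-1.77 ± 1.11, adjusted p = 0.318). At day 3 reads of Klf4 and Pou5f1 can come from the induced cassette as well as from the endogenous genes.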

How the data were processed

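Per the labels and the study's methods, the authors lysed cells, removed nuclei, sorted GFP-LSM14A particles as P-bodies, prepared cDNA with a SMART-Seq kit, aligned it to mm10 with HISAT2 and counted reads on refGene exons with featureCounts. The deposited values are estimated counts per gene: 18.1% to 20.9% of values per library of this comparison were not whole, and how shared reads were divided and whether strand was used is not given in the sources used here. Fractions were rounded. The authors also deposited tables of DESeq2 fold changes and p-values and other salmon tables, which were not used. 0 columns of the count table were left without a sample.

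P-body and cytoplasm libraries, grouped by sample title, were compared with edgeR (version 4.0.16, R 4.3.3) after TMM scaling (factors 0.977 to 1.012), with a sum of 10 reads or more per gene over the fit, and called at adjusted p under 0.05. CPM use library totals, and SE come from the test statistic. Named genes are the 12 largest changes in each direction among called genes of at least 10 CPM with groups apart, 14 fixed genes, up to 4 called and the 2 most abundant members of each list, and the 4 largest differences in each direction per interaction. Other called genes were named after their values were seen. Members and lists were chosen with earlier results of these data known. Counts were simulated for the main comparison, with 15786 genes. Of genes changed by log2 of 1, 100 of 100 were recovered, and of those changed by 2, 100 of 100, with 16 unchanged genes called. For the difference between the arms, with 16973 genes, 89 of 100 and 100 of 100 were recovered, with 11 unchanged genes called. All simulated libraries had the same spread, whereas here the SD between replicates was 0.413 for P-bodies and 0.140 for cytoplasm. The recovery thus does not carry over to these data, where Pou5f1 (-1.32) and Klf4 (-1.01) were not called. Length, GC content and sites came from GENCODE M21 (GRCm38), matched by symbol to 24366 of 25239 genes directly and to 323 through RefSeq synonyms. Alternatives were DESeq2 (version 1.42.0), its size factors, other filters, a replicate block, a fit of all 20 libraries, leaving out each library and, chosen after seeing the data, a threshold of 0.1. Some items are not reported here.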

Additional observations from a re-analysis of the deposited data

Results flagged for a closer look

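Differences in P-body enrichment between the day 3 control and the Nudt21 knockdown arm were called for 2 genes by the interaction test. These were Kcnq1ot1 (control minus knockdown, log2 of 2.42) and Xist (2.12). Both RNAs were higher in the cytoplasm and lower in the P-bodies of the knockdown arm than in the control.

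Differences between the day 3 control and MEFs were called for 2575 genes. Among those with at least 10 reads in each of the 8 libraries, the largest differences towards lower enrichment at day 3 were those of Erdr1 (-4.26), Phxr4 (-3.59), Wnt4 (-3.53) and G530011O06Rik (-3.35). Erdr1 had 13.6 and 21.3 CPM in MEF P-bodies and 1.67 and 2.59 CPM in MEF cytoplasm, against 1.67 and 1.29 CPM in P-bodies and 3.55 and 3.77 CPM in cytoplasm at day 3. The largest differences towards higher enrichment at day 3 were those of Dhrs9 (3.99), Cdh3 (3.60), Aldh1l1 (3.39) and Lrrc15 (3.32). Lrrc15, a membrane protein of activated fibroblasts, had 201.9 and 178.6 CPM in MEF cytoplasm and 20.5 and 13.0 CPM in MEF P-bodies, and at most 2.06 CPM in any library at day 3. Cdh3 (P-cadherin) had 30.8 and 31.8 CPM in MEF cytoplasm and 2.69 and 2.36 CPM in MEF P-bodies, against 1.27 to 2.12 CPM at day 3.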

How the results depend on the processing

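The 102 calls of the main comparison became 202 with edgeR's filterByExpr, 1940 with no filter, 2105 by DESeq2, 3891 when the 20 libraries were fitted together and 1071 at an adjusted p under 0.1, a threshold chosen after seeing the data. Each of these sets held all 102 genes. With the size factors of DESeq2 the count was 106, with 1 of the 102 genes lost. Enriched genes were 30.4% of the calls, against 41.9% with no filter, 44.6% with DESeq2, 50.1% in the fit of all libraries, 28.4% with the replicate block, and 18.1% and 15.9% without cytoplasm replicate 1 or 2. Leaving out 1 library gave 82 to 8752 calls, so the number of calls at 2 libraries a fraction has little precision. The same step gave 1017 to 5729 calls in the knockdown arm (3501 in full), 0 to 2185 for the difference between the arms (2 in full, 819 at an unadjusted p under 0.05) and 259 to 5546 for the difference from MEFs (2575 in full). In the fit with 2185 calls P-body replicate 1 of the control was left out. The difference between the arms had 62 calls with no filter and 26 with DESeq2, and the difference from MEFs 3869 at an adjusted p under 0.1. The cause of these shifts was not tested.

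Replicate numbers are shared between fractions, and the labels do not say what they stand for. With the number as a replicate block the main comparison had 802 calls, with all 102 genes among them, and the difference between the arms had 1. As a check of the pairing, the difference of replicate 1 minus 2 in P-bodies had a correlation of 0.16 with that in cytoplasm across 9904 genes, over 2 pairs only.

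For 9 named genes, none of them called, leaving out 1 library turned the sign of the log2 fold change. The ranges were -0.13 to 0.082 for Btg2, -0.12 to 0.089 for Tnrc6b, -0.11 to 0.036 for Fgf4, -0.019 to 0.11 for Eef2, -0.067 to 0.022 for Hspa5, -0.21 to 0.069 for Ccnd2, -0.10 to 0.31 for Cd68, -0.98 to 0.31 for Esam and -0.33 to 0.29 for Cyp2f2.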

Other observations

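Hba-a1 and Hba-a2, the adult alpha-globin genes, had the same counts, 10 reads in each P-body library and 0 in both cytoplasm libraries. Embryonic globin Hbb-y was found in both fractions, with 208 and 196 reads in P-bodies against 172 and 204 in cytoplasm. None of these genes was called.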
